A study of Arabidopsis thaliana with 12 samples.

Results

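Transcript levels of 9 genes that write, read out or remove DNA methylation were followed in whole Arabidopsis thaliana seedlings. They were taken by locus identifier for their role, with no threshold on their values. They are the DNA methyltransferases MET1, CMT3, CMT2 and DRM2, the histone methyltransferase SUVH4, the chromatin remodeller DDM1, the silencing factor MOM1, and the DNA glycosylases ROS1 and DME. All 9 were found among the 32833 genes of the count tables, and all 9 passed the filter on low counts in every comparison. RNA was sequenced from 12 libraries in 4 groups of 3. Experiment 1 held libraries labelled hira-1, named for a mutant of the histone H3.3 chaperone HIRA, and wild-type Columbia-0 (Col-0). Experiment 2 held fas2-4, a mutant of the FAS2 subunit of the histone H3.1 chaperone CAF-1, and its own Col-0 libraries. All plants were stratified for 4 days and grown in soil in long days at 21 °C, and whole seedlings were taken 12 days after germination. The labels name the mutants only by allele, so the lesion, the number of seedlings in a library and any separate sowing of the replicates are not known here. The p-values below therefore measure the spread between these libraries, which may be technical. RNA was taken from whole seedlings, so fewer cells of a type and less RNA per cell cannot be told apart.

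In plants, cytosines are methylated in the CG, CHG and CHH contexts, where H is any base but G, and different enzymes keep each context. MET1 copies CG methylation onto the new strand after replication. CMT3 and SUVH4 work as a loop, in which SUVH4 methylates lysine 9 of histone H3 and CMT3 binds that mark and methylates CHG. CMT2 methylates CHH in the heterochromatin that DDM1 opens, DRM2 methylates sites chosen by small RNAs, and ROS1 and DME cut methylated cytosines out. Transcript levels do not measure methylation itself, which was not assayed in these libraries.

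The libraries held 20700171 to 21902258 counts in experiment 1 and 39258873 to 39510509 in experiment 2. HIRA itself had 235, 286 and 454 counts in the libraries labelled hira-1, against 223, 300 and 203 in Col-0 (log2 fold change +0.56, edgeR adjusted p = 0.198). With the length correction described below HIRA was called higher (+1.47, edgeR adjusted p = 0.0482), and every library labelled hira-1 lay above every Col-0 library. HIRA was not lower in either fit and the lesion is not known here, so its level could not check the label. FAS2 had 197, 207 and 281 counts in fas2-4, against 273, 286 and 253 in Col-0 (log2 fold change -0.40, edgeR adjusted p = 0.156; -0.47 and 0.0477 with the length correction). The leaf markers, which identify green tissue, summed to 42730 to 53510 TMM-scaled TPM in the libraries labelled hira-1 and 46080 to 56800 in their Col-0, and to 34510 to 38500 in fas2-4 and 49170 to 57880 in its Col-0, with none at 0. Root markers summed to 27.3 to 33.5 in fas2-4 and 36.3 to 38.6 in its Col-0, and to 15.7 to 21.8 in the libraries labelled hira-1 and 17.1 to 20.1 in theirs. TMM-scaled TPM is the authors' level per gene, corrected for gene length, library size and a library factor. In experiment 1 fold changes depended on gene length: the median log2 fold change of the libraries labelled hira-1 over Col-0 was +0.763 for genes with exons of up to 500 bases and -0.996 for genes over 4500 bases. The libraries of a group differed in this. The median log2 deviation of genes over 4500 bases was 0.675, 0.921 and -0.096 in Col-0 replicates 1, 2 and 3. It was -0.597, 0.083 and -0.97 in replicates 1, 2 and 3 labelled hira-1, so the groups overlapped. The 9 genes are long, with 2331 to 7191 exon bases, longer than 73.1% to 99.7% of the tested genes, whose median was 1780 bases. Each comparison is therefore given with and without a length correction, which removes from each library a smooth curve of its deviations against exon length. In experiment 2, fas2-4 replicate 1 stood apart from its group, with a median log2 deviation of genes over 4500 bases of -0.62, against 0.272 and 0.311 in replicates 2 and 3. For DDM1, MET1, CMT3, SUVH4 and ROS1 the fold change in fas2-4 is also given without that library, for ROS1 with the length correction only. For the other genes it is stated whether they were called without it.

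**Figure D1:**
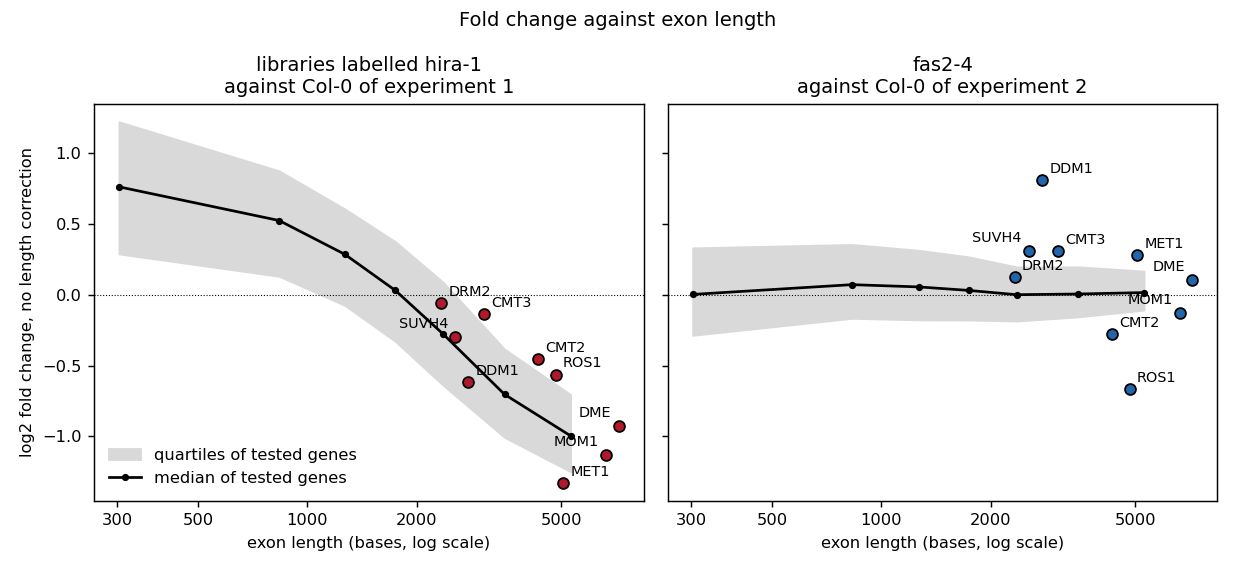
Log2 fold change without length correction (vertical axis) against summed exon length in bases (horizontal axis, log scale). Coloured points are the 9 genes, the line is the median of all tested genes in 7 length ranges and the shaded band their quartiles. In experiment 1 the median runs from +0.763 in the shortest range to -0.996 in the longest and the 9 genes lie at the long end. In experiment 2 the median lies within 0.1 of 0 in every range.

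The first question was whether the libraries labelled hira-1 differed from Col-0 in these transcripts. MET1, the CG maintenance methyltransferase, was the gene that fell: its 3 libraries labelled hira-1 all lay under the 3 Col-0 libraries, at 0.399 of the Col-0 level. The other 8 fold changes were also below 0, but none passed the threshold of an adjusted p of 0.05. With the length correction no gene of the 9 was called, and 6 of the 9 fold changes were above 0. In that fit 2 of the 9 had an unadjusted p under 0.05 in edgeR, as had 5782 of all 18739 tested genes. Over all 18739 tested genes, 13.7% were called in either direction and 6.8% lower without the correction, and 10.1% were called with it. One called gene of 9 is close to that background, and of all genes over 4500 bases, the length range of MET1, 22.5% were called lower. The median log2 fold change was -0.564 over the 9 genes and -0.023 over all tested genes, and with the length correction 0.156 and 0.017.

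MET1 (AT5G49160, chr5:19932114-19938470, plus strand, TAIR10.1) had 0.908, 2.02 and 0.945 TMM-scaled TPM in libraries 1, 2 and 3 labelled hira-1, against 3.29, 3.92 and 2.40 in Col-0 libraries 1, 2 and 3. The groups did not overlap, which held for 19.2% of all tested genes in the same direction. The log2 fold change was -1.33 ± 0.34 (SE, n = 3 each, edgeR adjusted p = 0.0392). Leaving out Col-0 replicate 1 or 2, or replicate 1 or 3 of the libraries labelled hira-1, ended the call (edgeR adjusted p = 0.144, 0.135, 0.119 and 0.107), with log2 fold changes from -1.12 to -1.32. With the length correction, MET1 had 4.82, 6.84 and 6.63 length-adjusted CPM (counts scaled to library size, after the correction) in the libraries labelled hira-1, against 7.79, 8.26 and 9.29 in Col-0. The groups still did not overlap, as for 16.5% of tested genes in that direction, but the log2 fold change of -0.46 ± 0.20 was not called (edgeR adjusted p = 0.154). Same-numbered libraries of experiment 1 deviated together, and a fit with the replicate number as a block called MET1 both without and with the length correction, at -1.37 (edgeR adjusted p = 1.56e-06) and -0.47 (edgeR adjusted p = 0.0389). Over all 21 alternatives the adjusted p of MET1 ran from 1.56e-06 to 0.334, and its fold change stayed below 0 in each.

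The pair that keeps CHG methylation did not pass the test. CMT3 (AT1G69770, chr1:26248118-26253687, minus strand) had 5.68, 7.19 and 5.44 TMM-scaled TPM in the libraries labelled hira-1, against 7.46, 7.45 and 5.07 in Col-0 (log2 fold change -0.14, SE 0.22, edgeR adjusted p = 0.673). SUVH4 (AT5G13960, chr5:4501362-4506250, plus strand) had 2.90, 3.21 and 2.53, against 4.20, 3.85 and 2.50 in Col-0 (log2 fold change -0.30, SE 0.26, edgeR adjusted p = 0.431). Both genes overlapped between the groups. SUVH4 shares bases with AT5G13970 on the other strand, and since the use of strand in counting is not known, its values are uncertain. After length correction the 3 libraries labelled hira-1 lay above Col-0 for CMT3, at 15.4, 15.5 and 18.1 length-adjusted CPM against 12.7, 12.3 and 11.2, as for 18.4% of tested genes in that direction. Its corrected log2 fold change of +0.43 ± 0.16 was not called (edgeR adjusted p = 0.102), but it was with the block added (edgeR adjusted p = 0.0211).

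The enzymes of CHH methylation did not pass the test either. CMT2 (AT4G19020, chr4:10414428-10421265, plus strand) had 2.19, 2.40 and 1.63 TMM-scaled TPM in the libraries labelled hira-1, against 3.26, 3.64 and 1.54 in Col-0, and Col-0 replicate 3 was the lowest of the 6 libraries. Its log2 fold change was -0.45 ± 0.33 (SE; edgeR adjusted p = 0.342), and +0.43 ± 0.22 with the length correction (edgeR adjusted p = 0.212). DRM2 (AT5G14620, chr5:4715105-4718704, minus strand), the shortest of the 9, had the smallest SE of the 9, with 6.21, 6.59 and 5.88 TMM-scaled TPM in the libraries labelled hira-1, against 6.94, 6.25 and 6.19 in Col-0. Its fold change of -0.06 on the log2 scale had a 95% interval of -0.42 to 0.305 (edgeR adjusted p = 0.841). After correction for length the groups of CMT2 and DRM2 did not overlap, with the libraries labelled hira-1 above, as for 18.4% of tested genes, and neither gene was called.

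DDM1 and MOM1 act on silent heterochromatin, DDM1 as a SNF2 remodeller and MOM1 as a silencing factor that works largely apart from methylation. DDM1 (AT5G66750, chr5:26648897-26653191, plus strand) had 1.49, 3.0 and 1.55 TMM-scaled TPM in the libraries labelled hira-1, against 3.78, 3.16 and 2.24 in Col-0. MOM1 (AT1G08060, chr1:2501704-2511084, minus strand), the gene with the lowest level, had 0.310, 0.651 and 0.127, against 0.847, 1.19 and 0.321 in Col-0. In both genes replicate 2 of the libraries labelled hira-1 stood above the lowest Col-0 library, replicate 3. The log2 fold changes were -0.62 ± 0.33 for DDM1 (SE; edgeR adjusted p = 0.207) and -1.13 ± 0.59 for MOM1 (edgeR adjusted p = 0.193), and -0.18 and -0.13 with the length correction. Without replicate 2 of the libraries labelled hira-1, DDM1 passed at -0.99 (edgeR adjusted p = 0.0487).

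The glycosylases that remove 5-methylcytosine did not pass the test. ROS1 (AT2G36490, chr2:15307907-15314807, minus strand), the main demethylase of vegetative tissue, had 1.21, 3.21 and 0.801 TMM-scaled TPM in the libraries labelled hira-1, against 2.71, 3.55 and 1.33 in Col-0. DME (AT5G04560, chr5:1309099-1318520, plus strand), best known from the central cell and pollen, had 0.391, 0.874 and 0.421, against 0.957, 1.63 and 0.584 in Col-0. Replicate 2 was the highest library of both groups for both genes, and the groups overlapped. The log2 fold changes were -0.56 ± 0.51 for ROS1 (SE; edgeR adjusted p = 0.437) and -0.93 ± 0.44 for DME (edgeR adjusted p = 0.158), and +0.26 and +0.16 with the length correction. With the replicate block and no length correction, 5 of the 9 genes were called lower (MET1, DDM1, MOM1, ROS1 and DME), where 27.3% of all tested genes were, and with both the block and the length correction, MET1 was called lower and CMT3 higher, where 38.4% of all tested genes were called.

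**Figure D2:**
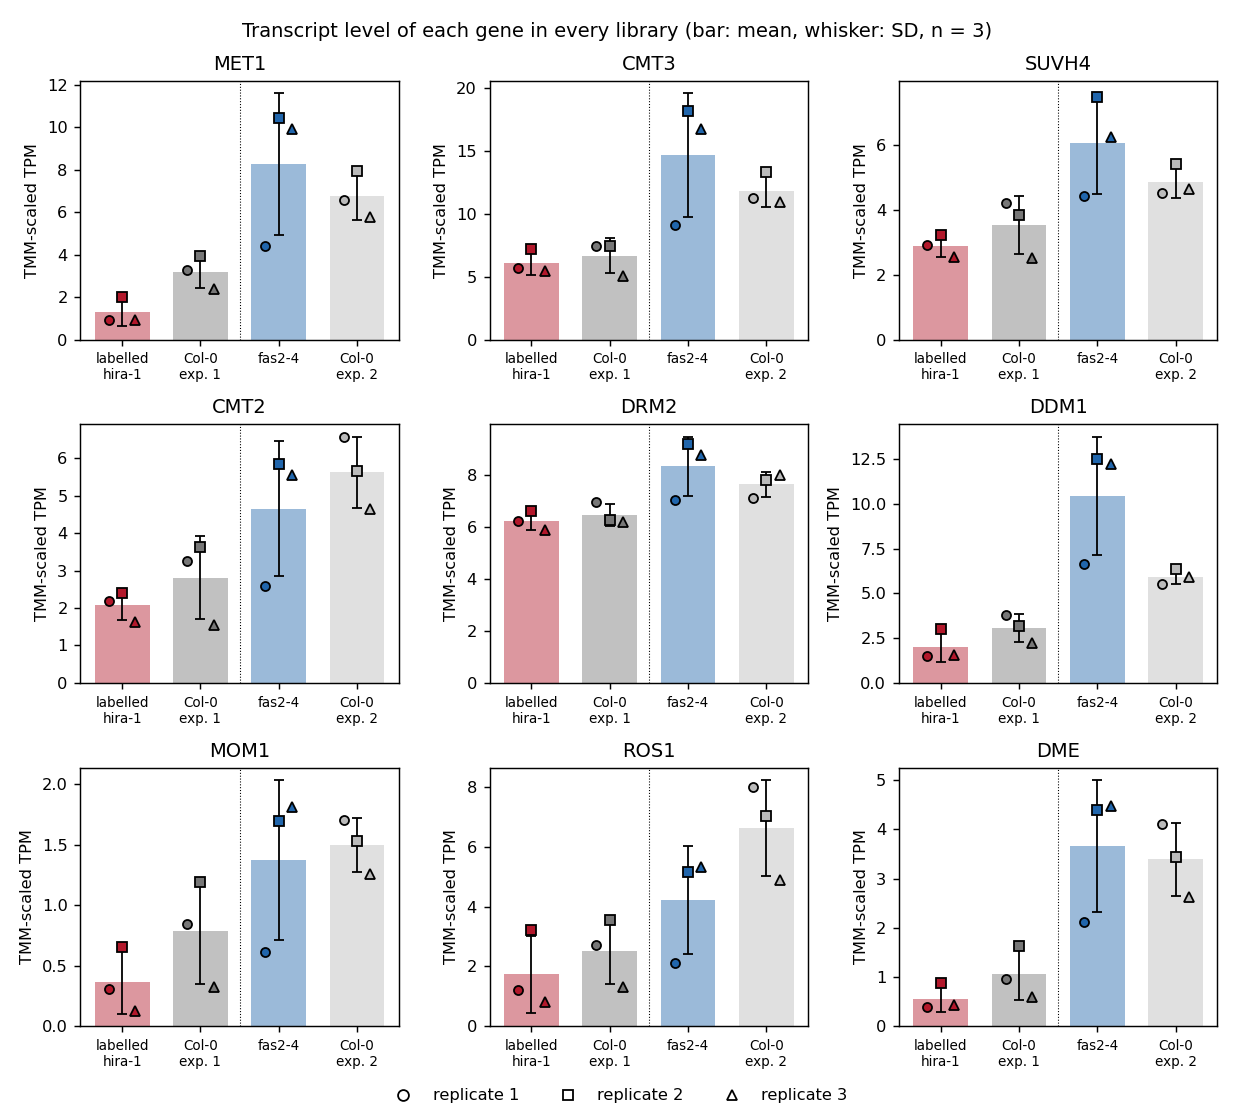
TMM-scaled TPM (vertical axis) of the 9 genes in the 4 groups (horizontal axis), with a point per library, its shape giving the replicate number, bars at the mean and whiskers of 1 SD (n = 3). MET1 is the one gene whose libraries labelled hira-1 all lie below Col-0, and DDM1 the one whose fas2-4 libraries all lie above Col-0. The TPM came as a separate set per experiment, so levels are to be compared within an experiment only.

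The second question was whether fas2-4 seedlings differed from Col-0 in these transcripts. DDM1 was the gene that stood out on the higher side and ROS1 on the lower side. DDM1 was at 1.75 times and ROS1 at 0.631 of the Col-0 level, and without length correction neither was called. edgeR called none of the 9, and 1 had an unadjusted p under 0.05, as had 5082 of 20004 tested genes. DESeq2, which called 13.6% of all genes, called DDM1. With the length correction, under which the SEs of both were smaller, DDM1 rose 1.66-fold and ROS1 fell to 0.586 of the Col-0 level, and both were called. Over all 20004 tested genes, 9.74% were called without the correction, 1356 higher and 592 lower, and 18.9% with it, 1647 higher (8.23%) and 2136 lower (10.7%), so 2 of 9 is near that background. The median log2 fold change was 0.124 over the 9 genes and 0.026 over all tested genes, and 0.063 and -0.061 with the length correction.

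DDM1 had 6.63, 12.5 and 12.2 TMM-scaled TPM in fas2-4 libraries 1, 2 and 3, against 5.53, 6.35 and 5.93 in Col-0 libraries 1, 2 and 3. The groups did not overlap, as for 17.5% of all tested genes in that direction, although fas2-4 replicate 1 lay close to Col-0. The log2 fold change was +0.81 ± 0.23 (SE, n = 3 each, edgeR adjusted p = 0.0571; DESeq2 adjusted p = 0.0113). In length-adjusted CPM the levels were 14.8, 21.2 and 20.5 in fas2-4, against 10.8, 11.9 and 11.3 in Col-0, where the groups were again apart, as for 14.8% of tested genes. The corrected log2 fold change was +0.73 ± 0.14 (edgeR adjusted p = 0.0097), and DDM1 stayed called when each of the 6 libraries was left out in turn, at 0.64 to 0.87 (edgeR adjusted p = 0.000252 to 0.048). Without fas2-4 replicate 1 and without length correction DDM1 was at +1.02 (edgeR adjusted p = 0.000125). Over all 21 alternatives its adjusted p ran from 0.000125 to 0.197. Markers of dividing cells moved in part in the same samples: their 12 genes, none at 0, summed to 675.5 to 781 TMM-scaled TPM in fas2-4 and 276.9 to 312.7 in Col-0. Without length correction 6 of the 12 were called higher (CDKB1;1, CDKB2;1, CDKB2;2, CYCB1;1, CYCA1;1 and TSO2), where 6.78% of all tested genes were. The other 6 were not called. Their log2 fold changes were +0.77 for KNOLLE, +0.15 for PCNA1, +0.21 for PCNA2, +0.22 for MCM5, -0.09 for MCM2 and -0.002 for MCM3. CDKB1;1, CDKB2;1, CDKB2;2, KNOLLE and PCNA2 overlap genes on the other strand and TSO2 a gene on the same strand, so their values are uncertain. The part of dividing cells in the DDM1 result was not tested.

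ROS1 had 2.13, 5.17 and 5.33 TMM-scaled TPM in fas2-4, against 8.0, 7.05 and 4.88 in Col-0. Col-0 replicate 3 lay between fas2-4 replicate 1 and the other two, so the groups overlapped, and ROS1 was not called without length correction (log2 fold change -0.66, SE 0.33, edgeR adjusted p = 0.246). In length-adjusted CPM the levels were 10.3, 14.04 and 13.9 in fas2-4, against 25.9, 22.8 and 16.9 in Col-0, and the groups were apart, as for 23% of tested genes in that direction. The corrected log2 fold change was -0.77 ± 0.18 (edgeR adjusted p = 0.0176). Without Col-0 replicate 1 or 2 it was not called (-0.63 and -0.74, edgeR adjusted p = 0.072 and 0.0624), and without fas2-4 replicate 1 it was (-0.65, edgeR adjusted p = 0.0183). Over all 21 alternatives the adjusted p of ROS1 ran from 0.0159 to 0.55. Leaf markers were lower in the same samples, at 34510 to 38500 TMM-scaled TPM in fas2-4 and 49170 to 57880 in Col-0 over 5 genes, none at 0. Without length correction 2 of the 5 were called lower, where 2.96% of all tested genes were. The part of green tissue in the ROS1 result was not tested.

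The windows before DDM1 and ROS1 are shown because they hold a short motif that the other 7 genes lack. Each is the 250 bases before the annotated start in RefSeq's TAIR10.1, written 5′ to 3′ on the gene's own strand. DDM1 (chr5:26648647-26648896, plus strand) and ROS1 (chr2:15314808-15315057, minus strand) read as follows, with capitals on the match to TTCCCGCC and, in ROS1, on the overlapping TTTCCCGC and TTGGCGGG (TTGGCGGG on the opposite strand).
DDM1: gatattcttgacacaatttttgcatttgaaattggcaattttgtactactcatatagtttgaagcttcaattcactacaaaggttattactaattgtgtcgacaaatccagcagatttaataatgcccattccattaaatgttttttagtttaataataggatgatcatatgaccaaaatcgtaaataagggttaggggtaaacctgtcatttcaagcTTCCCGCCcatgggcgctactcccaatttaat
ROS1: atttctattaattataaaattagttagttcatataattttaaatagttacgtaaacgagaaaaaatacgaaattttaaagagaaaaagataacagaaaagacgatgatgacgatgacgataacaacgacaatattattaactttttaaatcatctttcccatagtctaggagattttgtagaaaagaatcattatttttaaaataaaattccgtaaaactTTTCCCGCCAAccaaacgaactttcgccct
TTCCCGCC, searched on both strands, is a form of the site bound by E2F factors, regulators of genes of S phase. It lay 32 to 25 bases before the start of DDM1 and 29 to 22 bases before that of ROS1, and in 0.473% of all 32546 windows. Of the 12 dividing-cell markers, 4 held it (PCNA2, MCM2, MCM3 and MCM5), none of them called in fas2-4, and the 6 markers called higher there did not hold it. TTTCCCGC was in 0.581% and TTGGCGGG in 0.335% of windows, and among the 9 genes both occurred in ROS1 alone. The motifs were chosen after the values were seen, a match of letters does not show binding, and DDM1 and ROS1 lay on opposite sides of Col-0 in fas2-4.

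**Figure D3:**
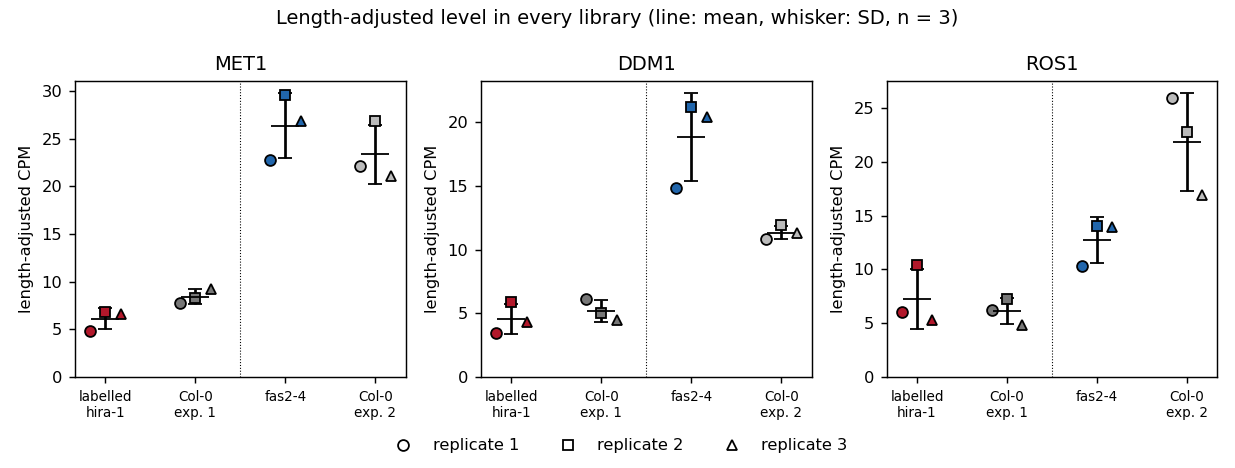
Length-adjusted CPM (vertical axis) of MET1, DDM1 and ROS1 in every library of the 4 groups (horizontal axis), with lines at the mean and whiskers of 1 SD (n = 3). DDM1 lies at 14.8 to 21.2 in fas2-4 and 10.8 to 11.9 in Col-0, and ROS1 at 10.3 to 14.04 in fas2-4 and 16.9 to 25.9 in Col-0. Values were scaled and corrected within each experiment.

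The methyltransferases of fas2-4 split by library. MET1 had 4.4, 10.4 and 9.91 TMM-scaled TPM in fas2-4, against 6.56, 7.94 and 5.76 in Col-0. CMT3 had 9.08, 18.2 and 16.7 in fas2-4, against 11.3, 13.3 and 10.9 in Col-0, and SUVH4 had 4.41, 7.48 and 6.22, against 4.51, 5.41 and 4.64 in Col-0. In all 3 genes fas2-4 replicate 1 was the lowest of the 6 libraries and fas2-4 replicates 2 and 3 were the highest. The log2 fold changes were +0.28 ± 0.29 for MET1, +0.31 ± 0.23 for CMT3 and +0.31 ± 0.20 for SUVH4 (SE; edgeR adjusted p = 0.616, 0.48 and 0.378). Without fas2-4 replicate 1, MET1 (+0.55), CMT3 (+0.53) and SUVH4 (+0.46) were called higher along with DDM1 (edgeR adjusted p = 0.0116, 0.00638 and 0.0258), where 14.2% of all tested genes were called higher. With that library left out and the length correction, CMT3 was called among the 3 (+0.35, edgeR adjusted p = 0.0277), where 10.9% of tested genes were called higher and 18.2% lower.

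Among the remaining genes no difference was called in fas2-4 with or without the length correction. CMT2 had 2.59, 5.84 and 5.55 TMM-scaled TPM in fas2-4, against 6.56, 5.67 and 4.66 in Col-0, with a log2 fold change of -0.28 ± 0.28 and, corrected, -0.37 ± 0.15 (SE; edgeR adjusted p = 0.612 and 0.109). DRM2 had 7.04, 9.18 and 8.77 in fas2-4, against 7.09, 7.79 and 8.01 in Col-0, and its log2 fold change was +0.12 without correction and +0.06 with it, with a 95% interval of -0.131 to 0.258 (edgeR adjusted p = 0.707). MOM1 had 0.613, 1.70 and 1.81 in fas2-4, against 1.70, 1.53 and 1.26 in Col-0. After length correction the fas2-4 libraries of MOM1 all lay below Col-0, as for 23% of tested genes, and the log2 fold change of -0.27 ± 0.15 (-0.13 without correction) was not called (edgeR adjusted p = 0.25). DME had 2.12, 4.4 and 4.49 in fas2-4, against 4.11, 3.43 and 2.64 in Col-0, and its log2 fold change was +0.11 without correction and +0.02 with it, with a 95% interval of -0.195 to 0.239 (edgeR adjusted p = 0.914). In all 4 genes fas2-4 replicate 1 was the lowest of the 6 libraries, and before the correction the groups overlapped. None of the 4 was called without fas2-4 replicate 1 or any other of the 6 libraries, with or without the length correction. The interval of ROS1, the other glycosylase, was -1.12 to -0.428 after correction.

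**Figure D4:**
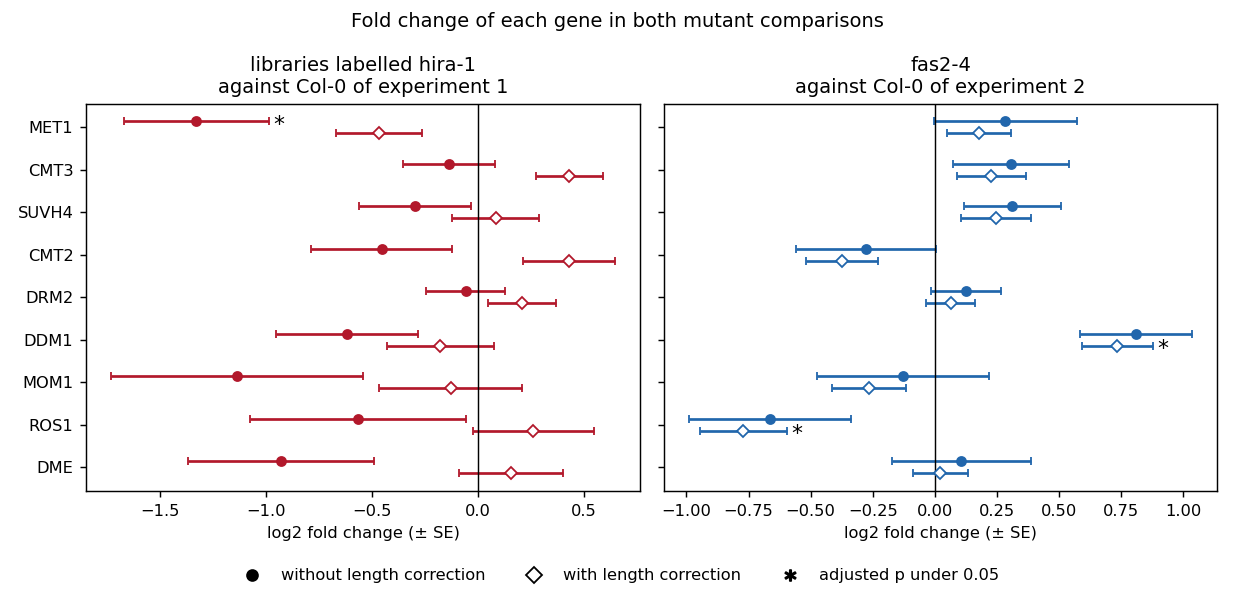
Log2 fold change with its SE (horizontal axis) of the 9 genes (vertical axis) in the libraries labelled hira-1 against Col-0 of experiment 1 (left) and in fas2-4 against Col-0 of experiment 2 (right). Filled points are without and open diamonds with the length correction, and stars mark an adjusted p under 0.05. The correction moved all 9 values of experiment 1 upward, MET1 from -1.33 to -0.46, and moved each value of experiment 2 by less than any of experiment 1.

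Whether the mutants differed from each other was tested as the fas2-4 effect minus the effect in the libraries labelled hira-1, over all 12 libraries. DDM1 differed, at +1.40 ± 0.42 (SE; edgeR adjusted p = 0.0485) and +0.91 ± 0.28 with the length correction (edgeR adjusted p = 0.0432), and it was the 1 gene of the 9 called in either fit. Over all 20152 tested genes, 11.6% were called, and 15.3% with the length correction. The call for DDM1 depended on single libraries, and with 9 of the 12 left out in turn it was lost (edgeR adjusted p from 0.0863 to 0.125), while without Col-0 replicate 3 of experiment 1, replicate 2 of the libraries labelled hira-1 or fas2-4 replicate 1 it held (0.0258, 0.0101 and 0.0153). The same 3 left-out libraries were the ones under which the length-corrected call held. MET1 just missed the threshold, at +1.58 ± 0.49 (edgeR adjusted p = 0.0518) and was called with the replicate block (edgeR adjusted p = 0.0105), where 32.1% of all tested genes were. With length correction and block together MET1 (+0.65), DDM1 (+0.91), CMT2 (-0.78) and ROS1 (-0.98) were called (edgeR adjusted p = 0.0153, 0.0209, 0.0435 and 0.0214), where 29.9% of all tested genes were.

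The wild-type libraries of the experiments also differed, and experiment and any batch cannot be told apart in them. DME was higher in Col-0 of experiment 2, at 3.39 ± 0.74 TMM-scaled TPM, than in Col-0 of experiment 1, at 1.06 ± 0.53 (SD, n = 3 each; log2 fold change +1.36, edgeR adjusted p = 0.0238, and +0.93, 0.00093 with the length correction). The call without length correction was lost without Col-0 replicate 1 or 3 of experiment 1 (edgeR adjusted p = 0.0776 and 0.0849) and without Col-0 replicate 1 or 2 of experiment 2 (0.0856 and 0.0613). ROS1 was at 20.3 ± 5.08 CPM in Col-0 of experiment 2 and 9.65 ± 4.35 in Col-0 of experiment 1, and was called with the length correction alone (+0.80, edgeR adjusted p = 0.0221). Over all 20152 tested genes 24.4% were called, and 33.6% with the length correction.

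The order of the levels was read per gene length, in TMM-scaled TPM. In the libraries labelled hira-1, DRM2 at 6.23 ± 0.36 and CMT3 at 6.10 ± 0.95 came first (SD, n = 3) and did not differ beyond their spread. They were followed by SUVH4 at 2.88, CMT2 at 2.07, DDM1 at 2.01, ROS1 at 1.74, MET1 at 1.29, DME at 0.562 and MOM1 at 0.363. SUVH4 did not overlap with CMT3 before it or CMT2 after it, MET1 did not overlap with DME, and the other neighbours overlapped. In Col-0 of experiment 1 the order was CMT3 at 6.66 ± 1.37, DRM2, SUVH4, MET1, DDM1, CMT2, ROS1, DME at 1.06 and MOM1 at 0.787, and DRM2 and SUVH4 were the one pair of neighbours whose libraries did not overlap. MET1 thus had rank 7 of 9 in the libraries labelled hira-1 and rank 4 in their Col-0. These ranks rest on levels without the length correction described above, with which edgeR called MET1 only when the replicate block was added. In fas2-4 the order was CMT3 at 14.7 ± 4.89, DDM1 at 10.4 ± 3.31, DRM2, MET1, SUVH4, CMT2, ROS1, DME and MOM1 at 1.37 ± 0.66, and DME and MOM1 were the one pair of neighbours that did not overlap. In Col-0 of experiment 2 CMT3 came first at 11.8 ± 1.30, apart from DRM2, then MET1, ROS1, DDM1, CMT2, SUVH4, DME and MOM1 at 1.5 ± 0.23, with SUVH4, DME and MOM1 apart from one another. DDM1 had rank 2 in fas2-4 and rank 5 in its Col-0, and ROS1 had rank 7 in fas2-4 and rank 4 in Col-0.

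The other genes of the pathway were 42, in lists of maintenance cofactors, RNA-directed DNA methylation, demethylation cofactors, silencing factors and enzymes of the methyl donor S-adenosylmethionine. In fas2-4, 2 of 42 were called, both higher and both in RNA-directed DNA methylation, of which 22 were tested, where the background was 6.78% higher and 2.96% lower. None was called of 6 maintenance cofactors, 5 demethylation cofactors, 5 silencing factors or 4 methyl donor enzymes. The first was DRM1 (AT5G15380, chr5:4991347-4994924, plus strand), the paralogue of DRM2, which had 43, 92 and 62 counts in fas2-4, against 1, 1 and 0 in Col-0. The ratio of the summed counts, scaled by library sizes times their TMM factors, was 88.8, with a 95% interval of 24.3 to 738 that covers counting error only. The fitted log2 fold change was +6.23 (edgeR adjusted p = 0.000844) and depends on the prior count. The second was AGO9 (AT5G21150, chr5:7192239-7198381, plus strand), an Argonaute known from ovules, which had 45, 71 and 80 counts in fas2-4, against 18, 14 and 15 in Col-0 (log2 fold change +1.89 ± 0.28, SE; edgeR adjusted p = 0.00501). Both stayed called with the length correction, the replicate block and without each library in turn. Per length, DRM1 reached 0.813 to 1.63 TMM-scaled TPM in fas2-4, under the 7.04 to 9.18 of DRM2, which was not called. Flower markers moved in the same samples: AP1, SEP3 and LFY, none at 0, summed to 7.62 to 14.9 TMM-scaled TPM in fas2-4 and 1.03 to 1.51 in Col-0, and 3 of 3 were called higher. Shoot meristem markers, of which 2 of 4 could be tested and both were called higher, summed to 25.5 to 27.2 in fas2-4 and 10.3 to 14.3 in Col-0, with none at 0 in fas2-4 and WUS and CLV3 at 0 in 1 Col-0 library. The part of these cells in the DRM1 and AGO9 results was not tested. The median log2 fold change of the 42 genes was 0.124, against 0.026 over all tested genes.

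In the libraries labelled hira-1, 39 of the 42 could be tested, and 3 were called higher and 3 lower, against a background of 6.94% and 6.8%. By list these were 0 higher and 1 lower of 5 maintenance cofactors, 2 higher and 2 lower of 20 genes of RNA-directed DNA methylation, 1 higher of 5 silencing factors, and none of 5 demethylation cofactors or 4 methyl donor enzymes. DRM1 and AGO9 were not among the 39, with 0 to 2 and 2 to 6 counts in the libraries labelled hira-1 and 0 and 0 to 8 in Col-0. Higher were RDM1, a member of the complex that recruits RNA polymerase V, NRPD4, a subunit of polymerases IV and V, and MORC6, an ATPase that compacts silent chromatin. RDM1 had 13.4, 12.3 and 17.3 TMM-scaled TPM in the libraries labelled hira-1, against 7.5, 6.90 and 8.24 in Col-0 (log2 fold change +0.93, edgeR adjusted p = 0.0275). MORC6 had 8.70, 11.8 and 9.21, against 5.52, 6.53 and 5.10 in Col-0 (log2 fold change +0.78, edgeR adjusted p = 0.0385), and NRPD4 had 27.8, 23.0 and 29.8, against 14.5, 12.8 and 17.6 in Col-0 (+0.84, edgeR adjusted p = 0.0379). The groups of all 3 genes were apart, as for 19.4% of all tested genes in that direction.

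Lower were SUVH6, a histone H3 lysine 9 methyltransferase related to SUVH4, IDN2, which binds double-stranded RNA, and KTF1, an elongation factor that binds AGO4. SUVH6 had 0.719, 0.975 and 0.579 TMM-scaled TPM in the libraries labelled hira-1, against 2.44, 2.38 and 1.27 in Col-0 (log2 fold change -1.43, edgeR adjusted p = 0.0369). IDN2 had 2.08, 5.11 and 1.959, against 7.31, 8.30 and 6.19 in Col-0 (log2 fold change -1.27, edgeR adjusted p = 0.0471), and KTF1 had 0.423, 1.03 and 0.535, against 1.87, 1.60 and 1.28 in Col-0 (-1.26, edgeR adjusted p = 0.047). The groups of these 3 genes were apart too, as for 19.2% of all tested genes in that direction, with replicate 2 the highest of the libraries labelled hira-1 in each. Without length correction all 6 calls were lost without Col-0 replicate 1 or 2 or replicate 1 or 3 of the libraries labelled hira-1, and that of MORC6 also without Col-0 replicate 3. The edgeR adjusted p of the lost calls ran from 0.0586 for MORC6 to 0.173 for KTF1, and every log2 fold change kept its sign. With the length correction RDM1 (+1.40, edgeR adjusted p = 0.0203) and MORC6 (+1.19, edgeR adjusted p = 0.00905) stayed called, and none was called lower (SUVH6 -1.0, edgeR adjusted p = 0.0523). The corrected call of MORC6 was lost without Col-0 replicate 1 (edgeR adjusted p = 0.0604). That of RDM1 was lost without Col-0 replicate 1, Col-0 replicate 2 or replicate 1 of the libraries labelled hira-1 (edgeR adjusted p = 0.101, 0.0768 and 0.0582). RDM1 and SUVH6 overlap genes on the other strand, so their values are uncertain. The median log2 fold change of the 39 genes was -0.606, against -0.023 over all tested genes, and -0.105 and 0.017 with the length correction. The replicate block moved the calls to 4 higher and 18 lower of the 39 without length correction, where 23.9% of all tested genes were called higher and 27.3% lower. With the length correction as well there were 5 higher and 5 lower, where 20.6% and 17.9% of all tested genes were. Dividing-cell markers summed to 231.4 to 246.1 TMM-scaled TPM in the libraries labelled hira-1 and 171.7 to 194.0 in Col-0, none at 0, with 2 of 12 called higher and 1 lower, or 5 and 3 with the replicate block, and their part in these results was not tested. Flower markers summed to 3.28 to 5.51 in the libraries labelled hira-1 and 0.872 to 1.72 in Col-0, with 1 of the 3 at 0 in 2 Col-0 libraries. Of the 2 that could be tested, AP1 (log2 fold change +1.35, edgeR adjusted p = 0.0957) and SEP3 (+1.964, edgeR adjusted p = 0.0548), neither was called by edgeR without the replicate block. With the block edgeR called both higher, with or without the length correction. DESeq2, run without the block, called 1 of 2 tested flower markers higher. Their part in these results was not tested. Shoot meristem markers summed to 2.72 to 5.81 in the libraries labelled hira-1 and 2.06 to 5.19 in Col-0.

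**Figure D5:**
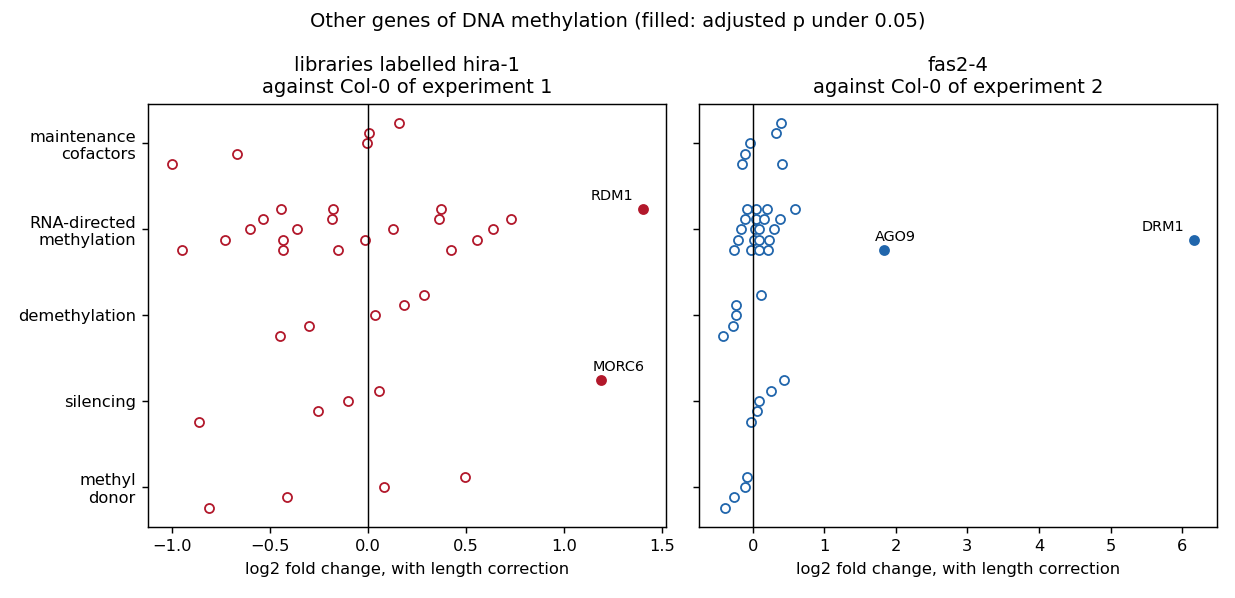
Log2 fold change with the length correction (horizontal axis) of the other pathway genes by list (vertical axis), a point per gene, filled where the adjusted p is under 0.05. RDM1 and MORC6 are filled in the libraries labelled hira-1 (left), and DRM1 and AGO9 in fas2-4 (right), where the other 40 genes lie within 1 of 0.

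Genes with the nearest pattern were found by the root mean square difference of log2 levels over the 12 libraries, after each gene's mean in an experiment was taken off. The nearest to MET1 were FAS1, the largest subunit of CAF-1, at 0.137, and AT1G52360 at 0.14, where the median over all genes was 0.713. The nearest to DDM1 were CYCA2;4, an A-type cyclin, and RPA70C, a subunit of replication protein A, both at 0.117 against a median of 0.578. CMT3 was near SUVH4 at 0.112, second after AT4G33400 at 0.111, with a median of 0.442. AT4G33400 was also the nearest to SUVH4 at 0.109, followed by AT4G35850 at 0.11. ROS1 had the most distant neighbours, CIP7 at 0.239 and LINC1 at 0.249. CMT2 was nearest to NERD at 0.128 and AT5G04780 at 0.138, and DRM2 to AT3G11830 at 0.0532 and AT3G07940 at 0.0562. MOM1 was nearest to FTSH12 at 0.164 and HAC4 at 0.168, and DME to EIF4G at 0.115 and AT2G21440 at 0.12. These likenesses run over 12 libraries that share depth and length deviations, and describe the libraries.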

How the data were processed

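RNA-seq of whole seedlings was analysed from tables of 32833 genes in 12 libraries. Read counts per gene were used as deposited by the authors. The submitters' processing notes name fastp 0.23.4 for the reads, HISAT2 2.2.1 for alignment and the build TAIR10. The tool that counted the reads, its annotation and its use of strand are not given in the sources used here. A second set of values, TMM-scaled TPM per gene, is a score the authors deposited beside the counts, read here as levels per gene length. It came separately for each experiment. Gene names, exon lengths and positions came from RefSeq's TAIR10.1, in which 32548 of the 32833 IDs matched and 285 did not. Libraries held 20700171 to 39510509 counts.

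Each mutant was compared with Col-0 of its own experiment, the 2 effects were compared with each other and the 2 Col-0 groups with each other, with edgeR 4.0.16 in R 4.3.3 (filterByExpr, TMM, quasi-likelihood test, Benjamini-Hochberg adjustment over all tested genes, threshold 0.05). SEs were taken as the log2 fold change over the square root of F. The length correction was an offset per library from a natural spline with 5 degrees of freedom of log2 deviations on log10 exon length. DESeq2 1.42.0, limma 3.58.1 on the TPM with pseudocounts of 0.5 and 0.1, other filters, a replicate block and leaving out each library were alternatives. The edgeR fit, with and without the length correction, was also run on simulated counts. These had either no length trend or the length curves fitted here, and no pairing of libraries. They therefore cannot test the pairing in experiment 1 or the form of the length correction.

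Same-numbered libraries of experiment 1 deviated together (correlations 0.281, 0.536 and 0.637 across genes, 0.292, 0.429 and 0.524 after length correction). Any pairing of these libraries is read from the data alone. The main fit did not use it, and only the alternatives with the replicate block did. Same-numbered libraries of experiment 2 did not deviate together (-0.066, 0.163 and 0.006).

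All 9 genes were named with values in every library, other pathway genes where they were called, and the 2 genes of nearest pattern to each of the 9. Of 47 further pathway genes, 5 whose name did not match the annotation were left out. The 9 genes and all lists were chosen with earlier results of these data known.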

Additional observations from a re-analysis of the deposited data

Results flagged for a closer look

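Of the 9 genes and the 42 others of the pathway, 4 differed between the mutants when the effect in the libraries labelled hira-1 was subtracted from the effect in fas2-4, by edgeR's interaction test over 12 libraries, without length correction or replicate block. Over all 20152 tested genes 11.6% were called in that test, so 4 among the 9 and 42 genes is no more than that background. DDM1 had a difference of 1.40 on the log2 scale (edgeR adjusted p = 0.0485), with +0.81 in fas2-4 and -0.62 in the libraries labelled hira-1, neither called in its own comparison at the same settings. In fas2-4 it was called by DESeq2 and with the length correction, and in the libraries labelled hira-1 with the replicate block. SUVH6 had a difference of 1.35 (edgeR adjusted p = 0.0441), and 0.90 with the length correction (edgeR adjusted p = 0.0533). RDM1 had a difference of -1.08 (edgeR adjusted p = 0.0197), and -1.56 with the length correction (edgeR adjusted p = 0.0168). KTF1 had a difference of 1.55 (edgeR adjusted p = 0.0429), and 0.68 with the length correction (edgeR adjusted p = 0.107). Each mutant came with its own experiment, so mutant and experiment cannot be told apart in these differences.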

How the results depend on the processing

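The settings that changed the most values were the length correction, the replicate block and the library left out, and the causes were not tested. Of all genes, the main fit called 2575 in the libraries labelled hira-1, 1948 in fas2-4, 2331 in the difference of effects and 4919 between the Col-0 groups. DESeq2 called 4369, 2938 and 4149 in the first 3. The length correction called 3783 in fas2-4. With 1 library left out, with or without the length correction, the counts ran from 19 to 5021 in the libraries labelled hira-1 (19 without Col-0 replicate 1, 5021 without replicate 2 of the libraries labelled hira-1), 643 to 5867 in fas2-4 (5867 without fas2-4 replicate 1), and 723 to 4844 in the difference. Between the Col-0 groups, where this was run only without the length correction, the counts ran from 2961 to 4095. Leaving out libraries under the length correction was chosen after seeing the data.

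In experiment 1, where same-numbered libraries deviated together, the replicate block called 9593 of 18739 tested genes, and 7205 (38.4%) with the length correction. It called 5 of the 9 genes, all lower, where 27.3% of all tested genes were called lower. With the length correction it called 2, against 0 with the length correction alone, where 10.1% of all tested genes were called. In fas2-4, whose numbers did not pair the libraries, the block called none of the 9 and 1465 of 20004 tested genes. With the length correction it called 2 of the 9 and 3746 of 20004 tested genes. In the difference the block called 6461 genes (32.1%) and 2 of the 9, and 6022 (29.9%) and 4 with the length correction. The block was not run between the Col-0 groups, whose libraries belong to different experiments.

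Of the 9 genes, fas2-4 had 1 called with DESeq2, where 13.6% of all tested genes were. It had 1 with no filter (1996 of 26034 genes) and 2 with the length correction (18.9% of all tested genes). The difference had 2 with DESeq2 (4149 of 20375 genes), and the Col-0 groups 2 with the length correction (33.6% of all tested genes). With 1 library left out, with or without the length correction, 0 to 2 were called in the libraries labelled hira-1, 0 to 4 in fas2-4 and 0 to 3 in the difference. Over all tested genes these fits called 19 of 19024 to 5021 of 19033 in the libraries labelled hira-1. They called 643 of 20277 to 5867 of 20198 in fas2-4, and 723 of 20764 to 4844 of 20729 in the difference. Between the Col-0 groups 0 to 1 were called, without the correction, where 2961 of 19958 to 4095 of 20764 tested genes were.

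In the libraries labelled hira-1 the length correction turned the log2 fold change of 6 genes above 0, to 0.43 for CMT2, 0.43 for CMT3, 0.21 for DRM2, 0.084 for SUVH4, 0.26 for ROS1 and 0.16 for DME. With the block added they were 0.42, 0.43, 0.21, 0.092, 0.22 and 0.14. In the difference it turned CMT2 to -0.79, CMT3 to -0.20, DRM2 to -0.14, MOM1 to -0.15 and DME to -0.12, and with the block to -0.78, -0.20, -0.15, -0.12 and -0.10.

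With 1 library left out, with or without the length correction, the log2 fold changes that turned in sign ran as follows. In the libraries labelled hira-1 they ran from -0.72 to 0.55 for CMT2, -0.27 to 0.47 for CMT3, -0.078 to 0.25 for DRM2, -0.46 to 0.19 for SUVH4, -1.83 to 0.10 for MOM1, -1.32 to 0.44 for ROS1 and -1.37 to 0.31 for DME. In fas2-4 they ran from -0.39 to 0.19 for MOM1 and -0.073 to 0.35 for DME. In the difference they ran from -0.91 to 0.47 for CMT2, -0.31 to 0.66 for CMT3, -0.19 to 0.25 for DRM2, -0.36 to 1.70 for MOM1, -1.20 to 0.65 for ROS1 and -0.29 to 1.48 for DME. Between the Col-0 groups, run without the length correction, SUVH4 ran from -0.060 to 0.29. MET1 in the libraries labelled hira-1 and DDM1 and ROS1 in fas2-4 kept their direction under every alternative run. At counts of 12 to 132 per library in experiment 1, MOM1 had the widest error.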
